A study of Homo sapiens with 8 samples.

Results

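The genes described here are the ERBB receptors and EGF family ligands that the study's expression table holds under the symbols EGFR, ERBB2, ERBB3, AREG, EREG, HBEGF, TGFA, BTC and NRG1. They were taken by gene symbol from a list of the family chosen with earlier results of these data known, and all 9 were found among 13771 genes. RNA was sequenced from 2 human breast epithelial cell lines, MCF10A, a non-tumorigenic line, and DCIS.COM, a line of the MCF10 lineage that models ductal carcinoma in situ. Each line carried either the lentiviral plasmid pCDH-HOTAIR, which expresses the long non-coding RNA HOTAIR, or the plasmid without insert (pCDH-empty), with 2 libraries in each of the 4 groups. All 8 libraries came from transduced cells under puromycin selection at 10 µg/ml, so that no untransduced cells are compared. The labels give both media 5% horse serum, but name epidermal growth factor (20 ng/mL), hydrocortisone, insulin and cholera toxin for MCF10A only. Cell line, disease stage and culture medium therefore cannot be told apart in any comparison of the lines, and EGF itself is a ligand of EGFR.

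As background, the ERBB receptors are cell surface tyrosine kinases that signal as pairs. EGFR is activated by amphiregulin (AREG), transforming growth factor alpha (TGFA), EGF and epigen (EPGN), and also by betacellulin (BTC), heparin-binding EGF-like growth factor (HBEGF) and epiregulin (EREG), which reach ERBB4 as well. The neuregulin NRG1 binds ERBB3 and ERBB4. ERBB2 has no known ligand of its own and works as a partner, and ERBB3 has a weak kinase and depends on its partner. The ligands are made as membrane-bound precursors that ADAM proteases release. In the mammary gland AREG is known for its part in the growth of the ducts, MCF10A cells depend on EGF in culture, and amplification of ERBB2 defines HER2-positive breast cancer.

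The authors deposited log2 CPM, the logarithm to base 2 of a read count scaled to the normalized library size. Whole read counts could be recovered from these values, and the libraries held 19306864 to 34884841 reads. In MCF10A the pCDH-HOTAIR libraries (19306864 and 19675113) held fewer reads than the pCDH-empty libraries (31598168 and 27005146). Depth and vector therefore go together in that line. HOTAIR, the check of the labels, was higher in both pCDH-HOTAIR libraries of each line, by 7.28 on the log2 scale in MCF10A and by 5.41 in DCIS.COM. All 4 markers of basal mammary epithelium, 6 of 7 luminal markers and both general epithelial markers were in the table. Summed basal markers reached 8927 to 10200 CPM in MCF10A and 1244 to 1578 CPM in DCIS.COM, and summed luminal markers 4355 to 4553 CPM and 6239 to 7975 CPM. Single markers did not all follow these sums, which the keratins KRT5, KRT14 and KRT17 carried on the basal side. The basal TP63 read 11.8 to 17.6 CPM in MCF10A and 19.4 to 29.9 CPM in DCIS.COM, and the luminal KRT7 read 3195 to 3380 CPM and 1948 to 2299 CPM. The markers of other cell types in the table were 1 of 3 for leukocytes, 1 of 3 for endothelium and 1 of 4 for fibroblasts. The leukocyte marker CD68 read 19.6 to 23.9 CPM in MCF10A and 4.29 to 5.89 CPM in DCIS.COM. The endothelial PECAM1 read 1.70 to 2.69 CPM and 10.1 to 13.3 CPM, and the fibroblast COL1A2 1.51 to 3.72 CPM and 0 to 0.0333 CPM. PTPRC, LYZ, VWF, CDH5, PDGFRB, LUM and DCN were not in the table. One library stood apart. The library DCIS.COM pCDH-empty 1 lay at a distance of 46.4 to 51.3 from the other DCIS.COM libraries over all genes, compared with 22.3 to 30.1 among those 3, and results that rest on it are given with and without it. Nothing in the labels says that the 2 libraries of a group came from separate cultures, so p-values measure only the spread between these libraries, which may be technical.

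Members were spread over 7 chromosomes on GRCh37 (hg19), the build of the deposited counts, as placed by the GENCODE annotation. EGFR lies at chr7:55086710-55279321, ERBB2 at chr17:37844167-37886679, ERBB3 at chr12:56470583-56497289, HBEGF at chr5:139712428-139726188 and TGFA at chr2:70674416-70781325. A further 3 members are neighbours on chromosome 4, where EREG (chr4:75230862-75254466), AREG (chr4:75310853-75320722) and BTC (chr4:75669969-75719733) share a stretch of 546 kb with the EGFR ligand EPGN (chr4:75174187-75182506). The only other protein-coding gene annotated in that stretch is AREGB (chr4:75480629-75490486), a near-identical copy of AREG. The 3 genes of this stretch that are transcribed in the same direction and that differed most between the lines are shown by the 250 bases before their start sites, from RefSeq on GRCh38.p14, all on the plus strand. AREG (chr4:74444886-74445135) and EPGN (chr4:74308220-74308469) were the ligands that were lower in DCIS.COM, and EREG (chr4:74364895-74365144), which lies between them, was higher. Capitals mark 2 motifs searched on both strands, the cAMP response element TGACGTCA and the TATA box TATAAA.
AREG: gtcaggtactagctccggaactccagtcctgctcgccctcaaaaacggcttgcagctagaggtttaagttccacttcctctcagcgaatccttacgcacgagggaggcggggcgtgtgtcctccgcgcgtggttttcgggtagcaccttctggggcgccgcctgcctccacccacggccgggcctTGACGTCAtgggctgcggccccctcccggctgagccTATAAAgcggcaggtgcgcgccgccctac
EREG: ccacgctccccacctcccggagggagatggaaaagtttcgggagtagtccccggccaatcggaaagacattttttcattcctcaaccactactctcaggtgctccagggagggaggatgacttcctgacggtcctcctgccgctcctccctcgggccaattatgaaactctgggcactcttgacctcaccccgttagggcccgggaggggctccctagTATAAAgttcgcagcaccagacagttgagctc
EPGN: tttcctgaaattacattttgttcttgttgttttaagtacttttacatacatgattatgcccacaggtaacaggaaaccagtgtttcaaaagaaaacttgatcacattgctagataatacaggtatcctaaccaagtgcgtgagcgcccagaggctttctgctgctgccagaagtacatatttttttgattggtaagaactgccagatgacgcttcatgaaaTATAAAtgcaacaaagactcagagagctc

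All 3 sequences hold TATAAA a short way upstream of the start, at positions -29 to -24 in AREG and EPGN and -32 to -27 in EREG, a motif found in 10.7% of 35116 promoters of the same length. The letters TGACGTCA were found in AREG only, at -65 to -58, and occur in 1.65% of those promoters. The AP-1 site, searched as TGACTCA and TGAGTCA, was in none of these 3 windows and in 4.20% of all. A match is a description of the letters and no evidence of binding.

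Levels were first compared between the members within each group, as CPM per kb of exon, since longer transcripts collect more reads. In MCF10A pCDH-empty, AREG stood first at 127 CPM per kb (range 121 to 133, n = 2). It was followed by TGFA at 15.1, ERBB2 at 12.4, EGFR at 7.20, ERBB3 at 4.67, HBEGF at 3.05, EREG at 2.72 and BTC at 0.967 CPM per kb, and NRG1 was last at 0.00978. No neighbours in this order had overlapping ranges, and the MCF10A pCDH-HOTAIR libraries gave the same order. In DCIS.COM pCDH-empty, TGFA stood first at 31.4 CPM per kb (range 30.9 to 31.9). ERBB2 at 19.5, EREG at 19.4 and AREG at 19.1 CPM per kb came next, with ranges that overlapped between neighbours. ERBB3 at 8.31, HBEGF at 3.66, EGFR at 2.62, BTC at 1.71 and NRG1 at 0.634 CPM per kb followed. EGFR thus held place 4 of the 9 in MCF10A and place 7 in DCIS.COM. With the length of the canonical transcript in place of all exons, ERBB2 passed TGFA in 3 of the 4 groups, and AREG remained first in both MCF10A groups.

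**Figure D1:**
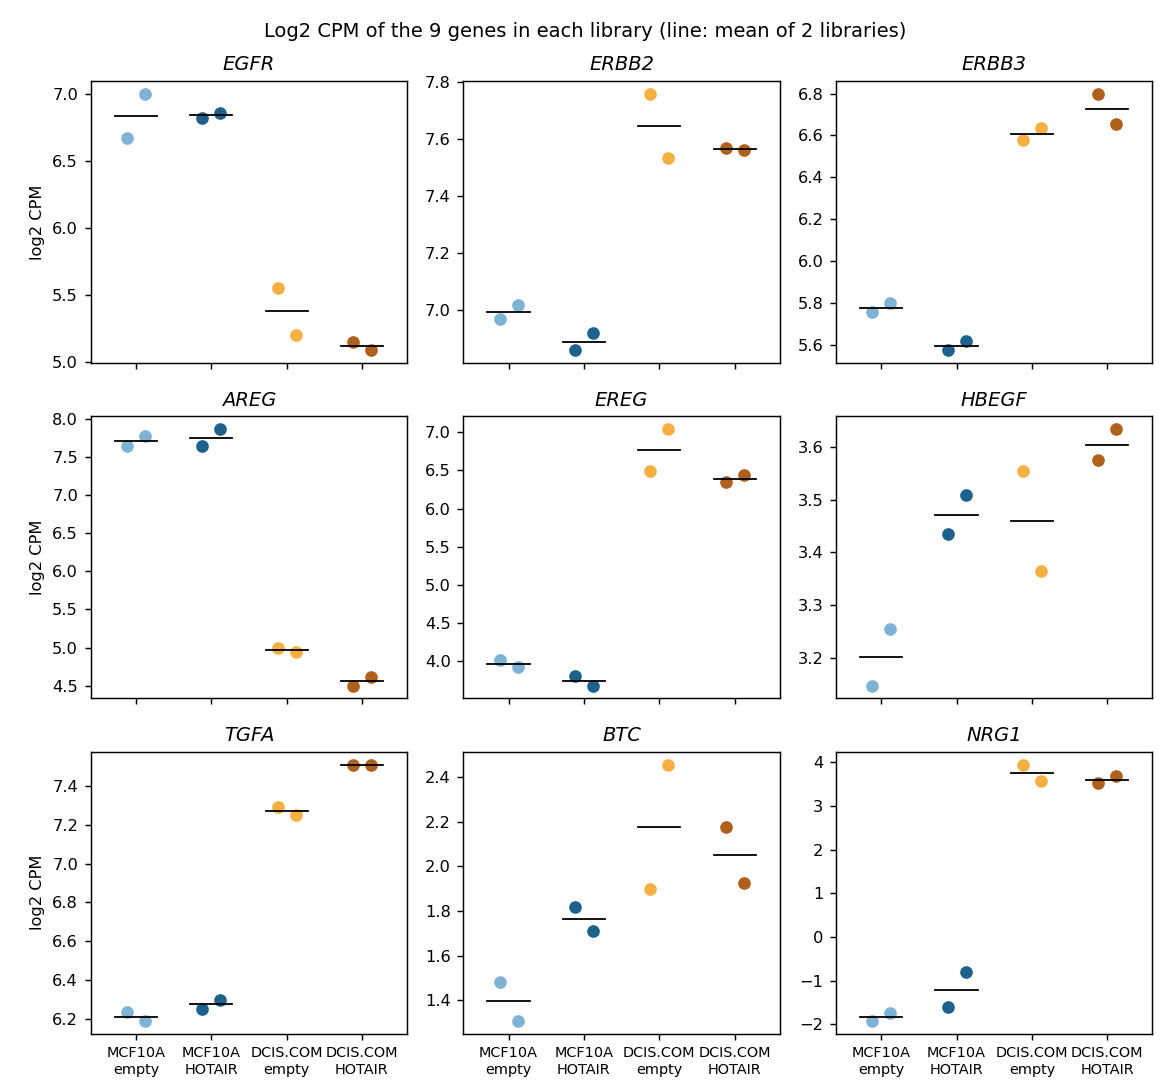
Each panel plots the log2 CPM of a gene (vertical axis, with its own range) in the 8 libraries by group, with points for libraries and a line for the mean of 2 libraries. EGFR and AREG sit lower in all 4 DCIS.COM libraries, EREG, TGFA and NRG1 sit higher, and HBEGF and BTC differ less between the lines than these.

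The first question was how the receptors and ligands differed between the lines. In the pCDH-empty libraries, 8 of the 9 members were called, that is, had a Benjamini-Hochberg adjusted p-value under 0.05 over all genes by limma and a fold change of at least 1.5, where 46.3% of all genes were called. Of the 8 members, 6 were higher in DCIS.COM (22.5% of all genes) and 2, EGFR and AREG, were lower (23.8%). In the pCDH-HOTAIR libraries, which are different libraries from the same 2 lines, 7 members were called against 43.7% of all genes, 5 higher (22%) and 2 lower (21.7%). The median size of the difference was 1.06 on the log2 scale over the 9 members and 0.54 over all genes with the empty vector, and 1.23 and 0.51 with HOTAIR. NRG1 is included in these counts and medians, but the table holds only genes with at least 0.970 CPM in their second-highest library. NRG1 reached that in DCIS.COM only, so its call and direction add no support. Within each vector the libraries of the lines did not overlap for any of the 9 members, as for 81.6% of all genes with the empty vector and 89.2% with HOTAIR.

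EGFR, the receptor for EGF, AREG and TGFA, read 6.67 and 7.0 log2 CPM in MCF10A pCDH-empty, 6.82 and 6.86 in MCF10A pCDH-HOTAIR, 5.55 and 5.20 in DCIS.COM pCDH-empty and 5.15 and 5.09 in DCIS.COM pCDH-HOTAIR. All 4 DCIS.COM libraries lay below all 4 MCF10A libraries. It was 2.74-fold lower in DCIS.COM with the empty vector (log2 difference -1.46, SE 0.14, adjusted p = 3.06e-05) and 3.30-fold lower with HOTAIR (-1.72, SE 0.14, adjusted p = 1.16e-05). Without the library that stood apart, the empty-vector difference was -1.63.

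ERBB2, the HER2 receptor, moved the other way. It read 6.97 and 7.02 log2 CPM in MCF10A pCDH-empty, 6.86 and 6.92 in MCF10A pCDH-HOTAIR, 7.76 and 7.53 in DCIS.COM pCDH-empty and 7.57 and 7.56 in DCIS.COM pCDH-HOTAIR. The lines did not overlap, and the difference was 0.65 (SE 0.081, adjusted p = 1.62e-04) with the empty vector and 0.68 (SE 0.081, adjusted p = 1.36e-04) with HOTAIR. This is close to the 1.5-fold threshold. Without DCIS.COM pCDH-empty 1 the difference was 0.54, and after correction for GC content 0.53, both below the threshold with adjusted p-values of 8.27e-06 and 2.35e-05. PGAP3 and MIEN1 overlap ERBB2 on the opposite strand, and the counting is not stated to use strand. Neither was called in either line comparison, both being below 1.5-fold. PGAP3 differed by 0.22 with the empty vector (limma adjusted p = 0.175) and by 0.41 with HOTAIR (adjusted p = 0.0264). MIEN1 differed by 0.27 (adjusted p = 0.0216) and 0.05 (adjusted p = 0.654).

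ERBB3, a receptor for NRG1, read 5.75 and 5.80 log2 CPM in MCF10A pCDH-empty, 5.57 and 5.62 in MCF10A pCDH-HOTAIR, 6.58 and 6.63 in DCIS.COM pCDH-empty and 6.80 and 6.66 in DCIS.COM pCDH-HOTAIR. It was higher in all DCIS.COM libraries, by 0.83 (SE 0.071, adjusted p = 1.78e-05) with the empty vector and by 1.13 (SE 0.071, adjusted p = 2.86e-06) with HOTAIR. ERBB4, the remaining receptor of the family, was not in the table. The make-up of the 3 receptor transcripts per kb differed accordingly. EGFR took 29.6% and 31.5% of their sum in the MCF10A pCDH-empty and pCDH-HOTAIR groups, and 8.60% and 7.35% in the same groups of DCIS.COM. ERBB2 took the largest share in every group, 51.1%, 50.4%, 64.0% and 62.1% in the same order, and ERBB3 took 19.3%, 18.1%, 27.4% and 30.6%.

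Among the ligands of EGFR, AREG showed the largest decrease of the members. It read 7.64 and 7.77 log2 CPM in MCF10A pCDH-empty, 7.64 and 7.86 in MCF10A pCDH-HOTAIR, 5.00 and 4.95 in DCIS.COM pCDH-empty and 4.50 and 4.62 in DCIS.COM pCDH-HOTAIR. The lines were far apart, with AREG 6.63-fold lower in DCIS.COM with the empty vector (log2 difference -2.73, SE 0.092, adjusted p = 1.02e-07) and 9.12-fold lower with HOTAIR (-3.19, SE 0.092, adjusted p = 5.5e-08). The level of AREG is uncertain because of its copy. A transcript of AREG with the length of the canonical transcript and a transcript of AREGB differed at 1 of 1234 aligned bases (99.9% identity). How the counting assigned reads that match both genes is not stated. The table has no row named AREGB, but the row closest to AREG of all 13771, Entrez 727738, which has no symbol, held 660 to 5092 reads and kept a ratio of AREG reads to its own between 1.21 and 1.25 in all 8 libraries. It differed between the lines by -2.76 and -3.17, and was called in both comparisons.

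TGFA, a ligand made by many epithelia, read 6.23 and 6.19 log2 CPM in MCF10A pCDH-empty, 6.25 and 6.30 in MCF10A pCDH-HOTAIR, 7.29 and 7.25 in DCIS.COM pCDH-empty and 7.51 in both DCIS.COM pCDH-HOTAIR libraries. It was higher in every DCIS.COM library, 2.09-fold with the empty vector (log2 difference 1.06, SE 0.058, adjusted p = 1.35e-06) and 2.35-fold with HOTAIR (1.23, SE 0.058, adjusted p = 5.74e-07). EREG, a ligand of EGFR and ERBB4, had the largest increase among the EGFR ligands. Its log2 CPM was 4.01 and 3.92 in MCF10A pCDH-empty, 3.80 and 3.68 in MCF10A pCDH-HOTAIR, 6.49 and 7.04 in DCIS.COM pCDH-empty and 6.35 and 6.44 in DCIS.COM pCDH-HOTAIR. The lines did not overlap, and EREG was 6.99-fold higher in DCIS.COM with the empty vector (log2 difference 2.80, SE 0.16, adjusted p = 1.59e-06) and 6.30-fold higher with HOTAIR (2.66, SE 0.16, adjusted p = 2.23e-06). Without DCIS.COM pCDH-empty 1 the first difference was 3.08.

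HBEGF and BTC, which bind both EGFR and ERBB4, differed less. HBEGF read 3.15 and 3.25 log2 CPM in MCF10A pCDH-empty, 3.43 and 3.51 in MCF10A pCDH-HOTAIR, 3.55 and 3.36 in DCIS.COM pCDH-empty and 3.57 and 3.63 in DCIS.COM pCDH-HOTAIR. Within each vector the DCIS.COM libraries lay above, but the MCF10A pCDH-HOTAIR and DCIS.COM pCDH-empty ranges overlapped, and neither difference was called (0.26, 95% interval 0.011 to 0.51, adjusted p = 0.061, and 0.13, interval -0.11 to 0.38, adjusted p = 0.303). BTC read 1.48 and 1.31 log2 CPM in MCF10A pCDH-empty, 1.82 and 1.71 in MCF10A pCDH-HOTAIR, 1.90 and 2.45 in DCIS.COM pCDH-empty and 2.18 and 1.92 in DCIS.COM pCDH-HOTAIR, from 64 to 158 reads a library. It was called with the empty vector (0.78, SE 0.20, adjusted p = 0.00926) and not with HOTAIR (0.28, interval -0.19 to 0.75, adjusted p = 0.248). The first call rested on single libraries, since the difference was 0.69 (adjusted p = 0.0615) without MCF10A pCDH-empty 2, 0.50 (below the fold threshold) without DCIS.COM pCDH-empty 2 and 1.06 without DCIS.COM pCDH-empty 1.

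NRG1 (chr8:31496738-32713184), a neuregulin that binds ERBB3 and ERBB4, had the largest difference of the members. Its presence in the table already required the higher level in DCIS.COM, since it reached 0.970 CPM there only. The p-values below are therefore no support for the direction of NRG1. In the MCF10A libraries it had 6 and 6 reads with the empty vector and 5 and 10 with HOTAIR (log2 CPM -1.92, -1.75, -1.60 and -0.81). In DCIS.COM it had 461 and 315 reads with the empty vector and 404 and 427 with HOTAIR (3.95, 3.56, 3.52 and 3.68). Mean CPM was 64.8 times higher in DCIS.COM with the empty vector and 31.8 times higher with HOTAIR, and the fitted log2 differences were 5.59 (SE 0.27, adjusted p = 6.58e-07) and 4.80 (SE 0.27, adjusted p = 1.60e-06). With so few reads in MCF10A the size of the fold depends on the prior count. It was 3.58 on the log2 scale with the empty vector when 1 CPM was added to each value before the logarithm.

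The relatives of the members filled in the family. EPGN, the chromosome 4 neighbour, read 5.56 and 5.55 log2 CPM in MCF10A pCDH-empty, 5.12 and 5.28 in MCF10A pCDH-HOTAIR, 2.11 and 2.20 in DCIS.COM pCDH-empty and 1.90 and 1.87 in DCIS.COM pCDH-HOTAIR. It was lower in DCIS.COM by a log2 difference of -3.40 with the empty vector (adjusted p = 5.01e-08) and -3.32 with HOTAIR (adjusted p = 5.64e-08), so that of the 4 tabled genes of the chromosome 4 stretch EPGN and AREG were lower and EREG higher in both comparisons, and BTC was called higher in the empty-vector comparison. EGF, with 18 to 85 reads, differed by 0.46 (adjusted p = 0.060, not called) and 1.11 (adjusted p = 0.00106). NRG4 was higher by 1.27 and 1.55, and it overlaps FBXO22 on the opposite strand. NRG2 was called higher in both comparisons, with 0 to 2 reads in the MCF10A libraries and 109 to 147 in DCIS.COM, and no fold is given for it. NRG3 was not in the table. Of the 7 EGFR ligands, 3 were called higher and 2 lower in each comparison. The genes called higher were EREG, TGFA and BTC with the empty vector and EREG, TGFA and EGF with HOTAIR. All 3 tabled neuregulins were called higher. The table holds only genes with at least 0.970 CPM in their second-highest library, and NRG1 and NRG2 reached that in DCIS.COM only, so their presence in the table already required the higher level there and the count of 3 is no support for a direction.

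The sum of the 7 EGFR ligand transcripts per kb was 155 to 177 CPM per kb in the MCF10A libraries and 72.0 to 79.9 in DCIS.COM. AREG made up 77.8% and 79.3% of it in the MCF10A pCDH-empty and pCDH-HOTAIR groups, and 24.9% and 19.6% in the same groups of DCIS.COM. TGFA made up 9.24% and 9.53% in MCF10A and 40.9% and 50.7% in DCIS.COM. EREG made up 1.67% and 1.41% in MCF10A and 25.1% and 20.1% in DCIS.COM, and EPGN 8.73% and 6.73%, then 1.73% and 1.5%. These shares are descriptions and were not tested. The AREG share covers the row named AREG only, and reads in the row without a symbol are not in it. In bulk RNA, fewer cells that express a gene and less RNA per cell cannot be told apart.

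**Figure D2:**
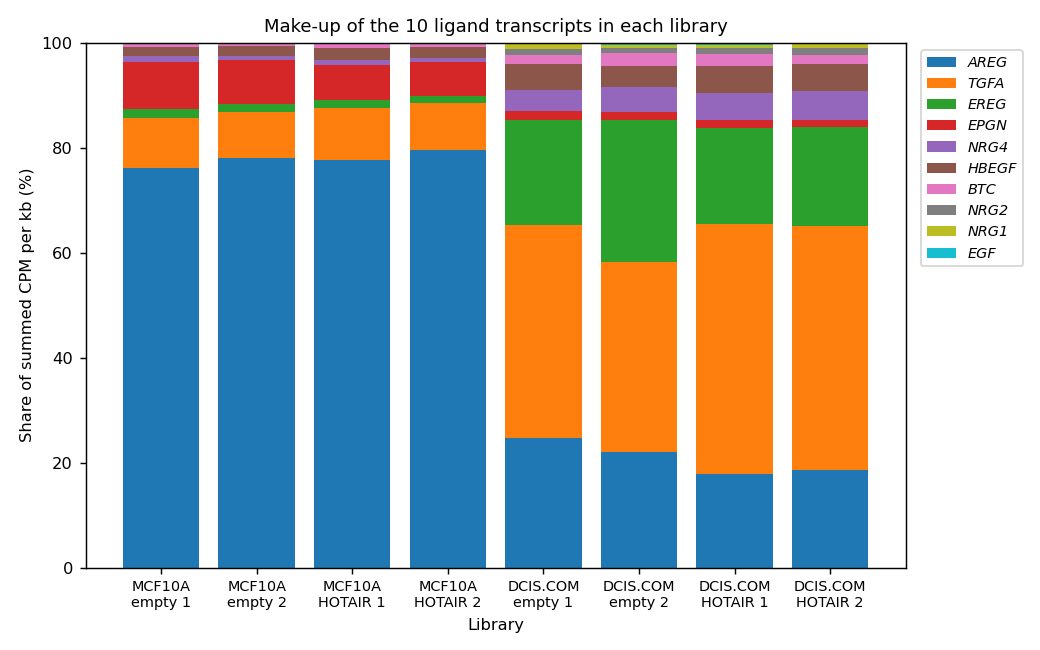
Stacked bars give, for each of the 8 libraries, the share of each of 10 ligand transcripts (the 7 EGFR ligands and the neuregulins NRG1, NRG2 and NRG4) in their summed CPM per kb of exon, in percent. AREG fills most of each MCF10A bar, and TGFA, EREG and AREG fill most of each DCIS.COM bar.

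The second question was whether HOTAIR changed the members within a line. No member was called in MCF10A, where 3 of 13771 genes (0.0218%) were, and none in DCIS.COM, where 12 (0.0871%) were. By limma-voom on the recovered reads the count was also 0 in both lines. The counts over all genes depended on single libraries. In MCF10A 51 genes were called without either DCIS.COM pCDH-empty library and 1 with any single other library left out, and in DCIS.COM 60 were called without DCIS.COM pCDH-empty 1, 1403 without DCIS.COM pCDH-empty 2, 1 without either DCIS.COM pCDH-HOTAIR library and 5 with any single MCF10A library left out. The members called were EREG without DCIS.COM pCDH-empty 1 and none in the other cases. Without adjustment, 3 of the 9 had a p-value under 0.05 in MCF10A (7.28% of all genes) and 3 in DCIS.COM (17.5%). The median size of the difference was 0.18 over the members and 0.090 over all genes in MCF10A, and 0.16 and 0.15 in DCIS.COM. In simulated libraries the same fit called 88.8% of 2-fold changes in MCF10A and 90.2% in DCIS.COM. The simulation gave all genes the same spread, had no library that stood apart and changed 200 genes. The real libraries differ in this, so these shares do not measure how well a change in a member would be found. The 95% intervals of the 9 differences stayed within 1.5-fold in either direction for 6 genes in MCF10A and for 5 in DCIS.COM.

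In MCF10A the members with an unadjusted p under 0.05 were ERBB3, lower with HOTAIR by a log2 difference of -0.18 (unadjusted p = 0.0345, adjusted p = 0.615), HBEGF, higher by 0.27 (0.0356 and 0.620), and NRG1, higher by 0.63 (0.0483 and 0.676) from 6, 6, 5 and 10 reads. EGFR differed by 0.01 (interval -0.31 to 0.32) and AREG by 0.05 (-0.17 to 0.26), and the libraries of both vectors overlapped for these genes. ERBB2 at -0.10, EREG at -0.22, TGFA at 0.06 and BTC at 0.37 did not overlap between the vectors, and neither did ERBB3, HBEGF and NRG1, so that 7 of the 9 members did not overlap, against 47.2% of all genes. The first 4 had adjusted p-values of 0.801 to 0.920.

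In DCIS.COM, AREG had the smallest p-value of the members. Its 2 pCDH-HOTAIR libraries (4.50 and 4.62 log2 CPM) lay below the 2 pCDH-empty libraries (5.00 and 4.95), a difference of -0.41 (SE 0.092, unadjusted p = 0.00217, adjusted p = 0.170), while EPGN, its neighbour, differed by -0.27 (adjusted p = 0.251). TGFA lay above, by 0.24 (SE 0.058, unadjusted p = 0.00363, adjusted p = 0.187). EREG lay below, by -0.37 (SE 0.16, unadjusted p = 0.0467, adjusted p = 0.282), but this value depended on which pCDH-empty library was kept (6.49 and 7.04 log2 CPM). Without DCIS.COM pCDH-empty 1, the library that stands apart, it was -0.65 and was called (adjusted p = 0.0131), with 60 genes called over the table, and without DCIS.COM pCDH-empty 2 it was -0.10. After GC correction it was -0.63 (adjusted p = 0.0121), with 50 genes called. Over the 10 alternatives that left out no single library its adjusted p ran from 0.0121 to 0.553.

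EGFR differed by -0.26 in DCIS.COM (adjusted p = 0.336), by -0.083 without DCIS.COM pCDH-empty 1 and by -0.44 without DCIS.COM pCDH-empty 2. The other members differed by -0.08 (ERBB2), 0.12 (ERBB3), 0.15 (HBEGF), -0.13 (BTC) and -0.16 (NRG1). ERBB2, BTC and NRG1 overlapped between the vectors, and the other 6 members did not, compared with 49.2% of all genes. ERBB2 and NRG1 changed sign without DCIS.COM pCDH-empty 1, and BTC without DCIS.COM pCDH-empty 2.

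The difference of the HOTAIR effect between the lines was tested as an interaction, with an adjusted p under 0.05 and no fold threshold. No member was called (0.0436% of all genes were), also by limma-voom, and 2 had an unadjusted p under 0.05 (10.5% of all genes). These were AREG, with a difference of -0.46 (95% interval -0.76 to -0.16, unadjusted p = 0.00796, adjusted p = 0.389), and ERBB3, with 0.30 (0.071 to 0.54, unadjusted p = 0.0169, adjusted p = 0.425). Without DCIS.COM pCDH-empty 2, 3 members were called, EGFR, ERBB3 and AREG, among 4414 genes called over the table.

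**Figure D3:**
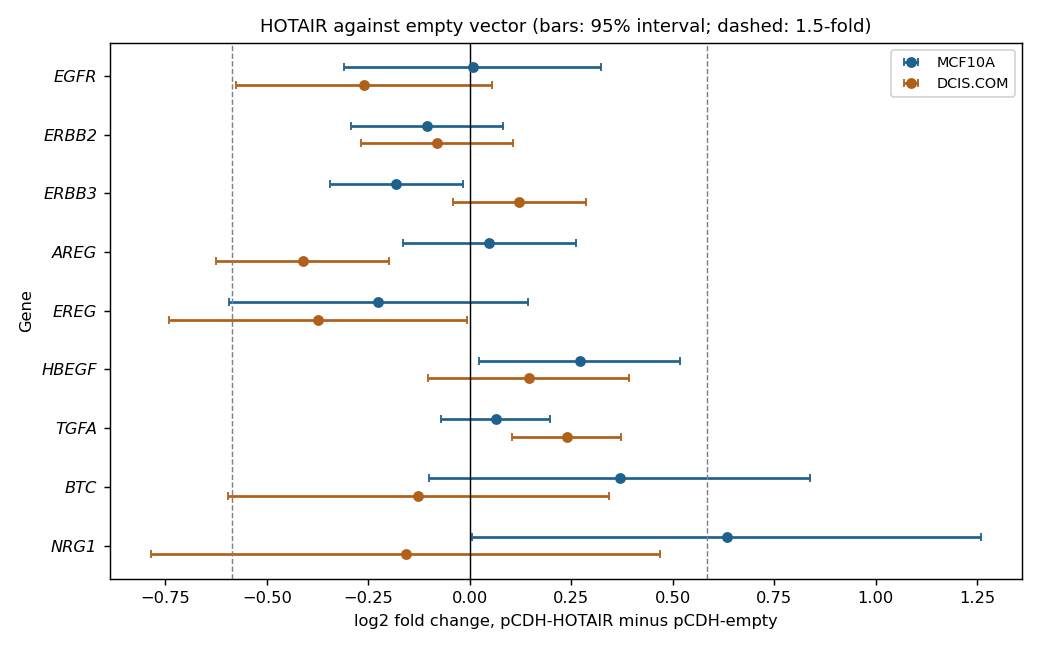
Points give the log2 fold change of each gene, pCDH-HOTAIR minus pCDH-empty (horizontal axis), in MCF10A and in DCIS.COM, bars give the 95% interval of the limma fit, and dashed lines mark 1.5-fold. The values lie between -0.41 and 0.63, and no gene was called in either line.

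The rest of the pathway was described by 4 lists of genes, the proteases and iRhoms that release the ligands, the inhibitors and turnover factors of the receptors, their adaptors and first effectors, and transcripts known to rise when cells are given EGF. None of their genes was called in either HOTAIR comparison or in the interaction. By unadjusted p under 0.05, the counts in MCF10A were 1 of 6 proteases and iRhoms, 3 of 12 inhibitors, 2 of 17 adaptors and 3 of 19 EGF-responsive transcripts, where 7.28% of all genes had such a p, and in DCIS.COM 2, 2, 1 and 7, where 17.5% had. For the interaction the counts were 1, 2, 3 and 9 in the same order, where 10.5% of all genes had such a p. Of the 19 EGF-responsive transcripts, 5 had a positive interaction difference, with a median of -0.17. The lists were not tested as sets. Between the lines, counts near the background of 46.3% and 43.7% are no result about a list.

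Of the 6 proteases and iRhoms, 1 was higher and 1 lower in DCIS.COM in both comparisons, ADAM12 (1.22 with the empty vector, 0.59 with HOTAIR) and ADAM9 (-1.40 and -1.20). ADAM17 and ADAM10, the main sheddases of these ligands, differed by 0.20 and 0.28 and by -0.39 and -0.23 and were not called, being below 1.5-fold. Of the 12 inhibitors and turnover factors, 5 were higher and 2 lower in both comparisons. LRIG1, a membrane protein that promotes loss of the receptors, was higher by 5.06 and 5.04, its relative LRIG3 by 2.07 and 2.38, and ERRFI1, which binds and inhibits the EGFR kinase, by 2.07 and 1.61. The ubiquitin ligases CBLB (-1.73 and -1.92) and CBLC (-1.21 and -1.36) were lower. The median difference of this list was 0.030 and 0.23, against -0.00012 and 0.0035 over all genes.

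Of the 17 adaptors and first effectors, 2 were higher and 3 lower with the empty vector, and 1 was higher and 5 lower with HOTAIR. GRB7, an adaptor that binds ERBB2, was higher by 1.15 and 1.22, and the docking protein GAB1 (-1.77 and -1.45) and the PI3-kinase subunit PIK3R1 (-1.34 and -1.01) were lower. PIK3CB was called with the empty vector only (0.60 and 0.53). Of the 19 EGF-responsive transcripts in the table, 10 were higher and 4 lower with the empty vector, and 10 were higher and 5 lower with HOTAIR, with a median difference of 0.80 and 0.61. Over all genes 22.5% were called higher and 23.8% lower with the empty vector, and 22% and 21.7% with HOTAIR. The cytokine LIF was higher by 4.61 and 4.21 and the transcription factor EGR1 by 3.05 and 2.89 (7 to 127 reads a library), while JUN (-3.63 and -4.08) and FOS (-3.15 and -2.59), partners in the AP-1 factor, were lower. With so few reads, EGR1 can have met the limit of 0.970 CPM in the second-highest library through DCIS.COM alone. Its direction and its place in the counts of this list therefore add no support. The medium with EGF was that of the MCF10A libraries.

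**Figure D4:**
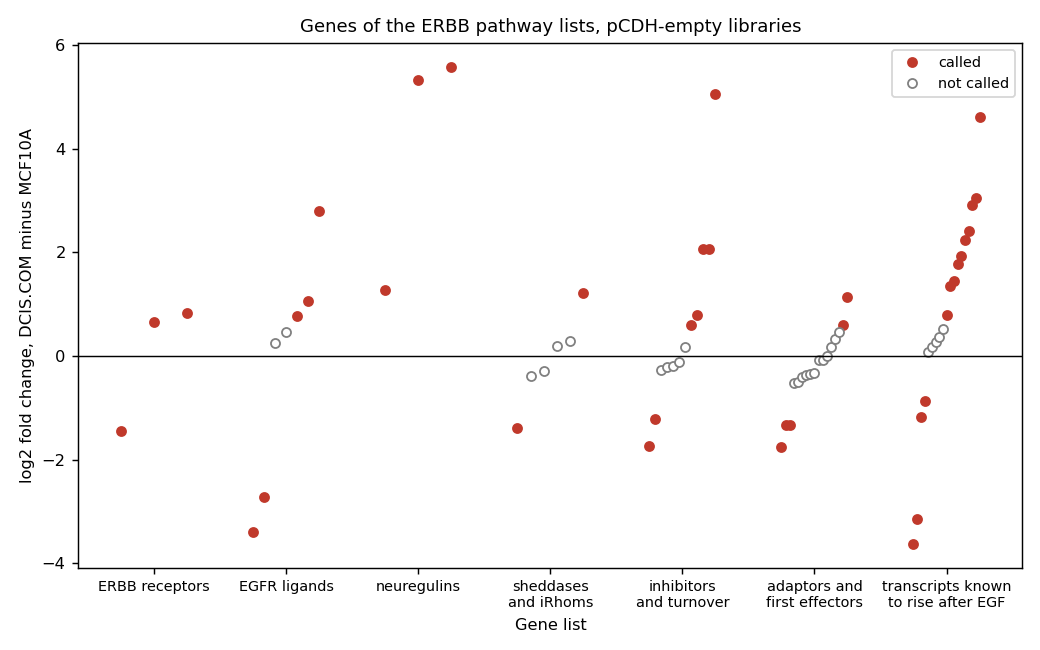
Each point is a gene of the ERBB pathway lists, placed by its log2 fold change, DCIS.COM minus MCF10A, in the pCDH-empty libraries (vertical axis), with filled points for genes called and open points for the rest. Called genes lie on both sides of zero in all lists but the neuregulins, and values run from -3.63 (JUN) to 5.59 (NRG1).

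Finally, the genes whose profile over the 8 libraries was most like that of each member were found by the Euclidean distance of log2 CPM centred on its mean. After the row without a symbol (0.052), AREG was nearest to DUSP10 (0.35) and DKK1 (0.35). NRG1 was nearest to CHRM3 (0.33), LEF1 (0.54) and DTNA (0.58), and EREG to DGKG (0.43), SLC48A1 (0.49) and MTUS1 (0.49). TGFA was nearest to PAPSS1 (0.13), SDC1 (0.13) and GRK5 (0.19). Among the receptors, EGFR was nearest to BMP2K (0.20) and MAP3K9 (0.27), ERBB2 to SLC25A5 (0.11), YY1AP1 (0.12) and DMKN (0.12), and ERBB3 to ENSA (0.18), NCAPH (0.19) and PCTP (0.19). HBEGF was nearest to TMEM177 (0.16), WLS (0.18) and RING1 (0.19) and BTC to CCDC163 (0.34) and PAPSS2 (0.36), but a flat profile was only 0.45 and 0.96 away from these members. These profiles share the difference between the lines, and nothing about shared control follows from them.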

How the data were processed

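RNA-seq libraries (ScriptSeq v2, 76 nt paired-end reads, RNA integrity over 8.0) were grouped by the cell line and vector given in the labels. The methods of the study give alignment to hg19 with Rsubread, gene counts with featureCounts and normalization with edgeR, whose versions and prior are not given in the sources used here. The authors deposited log2 CPM for 13771 genes, of which 343 have no symbol. No per-sample column was left unused. The deposited values fitted a shared prior of 0.0717 CPM, and 100% of them gave whole reads within 0.1 of a read. Counting error is largest for genes with few reads, such as NRG1 in MCF10A.

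From these values differences, tests and levels were computed here. limma 3.58.1 in R 4.3.3 was fitted to the 4 group means of all 8 libraries (eBayes with a mean-variance trend), and p-values were adjusted by Benjamini-Hochberg over all genes. Calls needed both an adjusted p under 0.05 and a change of 1.5-fold or more. Intervals are 95% intervals of this fit. On simulated data with 200 changed genes and the same spread for all genes, 91.4% of 2-fold changes between the lines were called. The recovered reads were tested with limma-voom as an alternative, and edgeR and DESeq2 were not used for tests. Positions and lengths came from GENCODE on GRCh37, promoters from RefSeq on GRCh38.p14, with an entry for 7 of the 9 members. Alternatives were quantile normalization, centring on the median, correction for length or GC content, 1 CPM added, a mean CPM of at least 2 (12222 genes), no trend, limma-voom, separate fits, the replicate number as a block, other fold thresholds and each library left out. GC correction and canonical lengths were added after seeing the data. Named genes are all members, HOTAIR, the 2 largest changes of each list in each direction among the calls, and the 3 nearest profiles of each member. ADAM10 and ADAM17 were named after their values were seen. The members and lists were chosen with earlier results of these data known. Other steps ran in Python 3.11.15 (scipy 1.17.1, pandas 2.3.3, numpy 2.4.6).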

Additional observations from a re-analysis of the deposited data

Results flagged for a closer look

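ERBB3 lay on opposite sides of its empty-vector level with HOTAIR in the 2 lines, a difference that did not pass the test. Both MCF10A pCDH-HOTAIR libraries (5.57 and 5.62 log2 CPM) lay below both pCDH-empty libraries (5.75 and 5.80), and both DCIS.COM pCDH-HOTAIR libraries (6.80 and 6.66) lay above theirs (6.58 and 6.63). The difference between the lines in the HOTAIR effect was 0.30 on the log2 scale, and the interaction test of limma gave an adjusted p of 0.425, with 0.245 to 0.487 over the 9 alternatives that kept all libraries and 0.0183 (difference 0.33) without DCIS.COM pCDH-empty 2. Its 95% interval was 0.071 to 0.54.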

How the results depend on the processing

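The count of members called kept its size, within 1.5 times, in 55 of 57 alternatives that left out no library and in 38 of 40 that left out 1. The exceptions were HOTAIR in DCIS.COM after GC correction (1 member, EREG), and the empty-vector line comparison at a fold change of at least 2 (5 members, without ERBB2, ERBB3 and BTC). With libraries left out, the count for HOTAIR in DCIS.COM ran from 0 to 1 and that of the interaction from 0 to 3. A group reduced to 1 library was assumed to vary like the other groups. Direction and call were kept by 439 log2 differences with all libraries and lost or gained by 1 each, and with 1 library left out by 342, while 11 turned sign, 4 gained and 3 lost a call. The ranges of those that turned sign were -0.16 to 0.17 for EGFR and -0.064 to 0.16 for AREG with HOTAIR in MCF10A, -0.19 to 0.032 for ERBB2, -0.35 to 0.033 for NRG1 and -0.40 to 0.15 for BTC with HOTAIR in DCIS.COM, and -0.089 to 0.14 for ERBB2 and -0.42 to 0.13 for EREG in the interaction. The cause was not tested. Canonical transcript length moved 31 of 36 levels per kb beyond the spread of the libraries. Replicate numbers shared by the groups did not pair the samples (correlations of deviations -0.029 to 0.036 over 12222 genes), and the fit with the replicate block gave the same counts of members called, 0, 0, 0, 8 and 7. The planned edgeR and DESeq2 alternatives were not run. The recovered reads were tested with limma-voom instead. Depth limits NRG1 and NRG2 in MCF10A.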
